A study of Homo sapiens with 8 samples.

Results

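The 39 genes described here encode the proteins that license, unwind, copy and finish chromosomal DNA and that supply its deoxynucleotides, and they were listed by name as a functional module. No measured value entered the rule, but the list was drawn up with earlier results of these data known. All 39 were measured, out of 11960 genes that had at least 1 probe set of their own on the arrays. Each gene was followed through its brightest probe set, a probe set being the group of short oligonucleotides that together report 1 transcript. Expression was measured on 8 Affymetrix arrays of SH-SY5Y, an established human neuroblastoma cell line. Clones B and G had been stably transfected with an RNA interference construct against DJ-1, the protein encoded by PARK7, and clones H and M stably with a scramble construct. Every clone was hybridised in duplicate, as replicate 1 and replicate 2, giving 4 knockdown and 4 control arrays. All arrays thus came from transfected, clonally selected cells, each line was a single clone, and no untransfected parental cells were analysed here. The labels do not say whether duplicates of a clone were separate cultures, so p-values reflect only how far these arrays spread, part of which may be technical.

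Replication begins when the origin recognition complex and CDC6 load the MCM2 to MCM7 ring onto DNA. CDC7 kinase, CDC45, MCM10 and the GINS complex then turn that ring into an active helicase, behind which primase, the replicative polymerases, the PCNA clamp and its RFC loader copy the strands. Many of these genes are transcribed at the border of G1 and S phase under E2F factors, so their transcripts are abundant in cultures with many proliferating cells and scarce in quiescent ones.

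PARK7, the targeted transcript, read 10.45 and 10.12 in clone B, 10.10 and 10.05 in clone G, 13.11 and 13.14 in clone H, and 13.11 and 12.95 in clone M, replicate 1 being given before replicate 2 here and in all lists below. All values are deposited log2 signals, and 1 unit is a doubling. The knockdown arrays lay below the control arrays without overlap, and PARK7 fell by 2.90 (SE 0.09, limma adjusted p = 1.67e-06), a 7.46-fold difference. Sympathetic neuroblast markers gave array means from 11.59 to 12.14 over the 9 of 11 markers measured, although TH, the catecholamine-synthesising enzyme, averaged 6.05 in knockdown and 5.99 in control arrays, below the array medians of 8.03 to 8.08. Leukocyte markers (6 of 8 measured) averaged 5.80 to 5.97 per array. Markers of the mesenchymal type of neuroblastoma cell, 11 of 11 measured, were lower on average in knockdown cells: their array means ran from 8.19 to 8.93 in knockdown and from 8.62 to 9.95 in control arrays, and 1 of the 11, CDH11, fell by 2.12 (limma adjusted p = 0.0359), joined by NOTCH2 with the replicate number in the fit (adjusted p = 0.0296). Most of this lay with clone M: the median over the 11 markers was -0.15 against clone H and -1.62 against clone M, and -1.15 for H minus M. Fibroblast and smooth muscle markers, 8 of 8 measured, had a median of -0.61, -0.20 against H and -0.92 against M. Their array means ran from 7.13 to 7.69 in knockdown and from 7.59 to 9.01 in control arrays. In limma 0 of them were called (2 at an unadjusted p under 0.05, beside 4428 of all 22215 probe sets). RNA integrity, read as the 3' minus the 5' signal of ACTB, was 0.24 to 0.46 in knockdown and 0.10 to 0.30 in control arrays. Read from GAPDH, it was 0.05 to 0.09 in knockdown and 0.02 to 0.13 in control arrays, so the ranges overlapped. The part of these differences in the results below was not tested.

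The first comparison asked how the replication genes differed between DJ-1 knockdown and control clones. Replication transcripts were higher on average in the knockdown clones: 37 of 39 had a positive difference, and the median difference was 0.45, a 1.36-fold higher signal, beside a median of 0.0029 over all 22215 probe sets, of which 11253 were positive. The median of the 39 genes on an array had a pooled SD of 0.33 within conditions (n = 4 arrays each). In the limma fit with clone as a random block, the helicase subunit gene MCM4 alone rose among the 39 (25 of 39 had an unadjusted p under 0.05). Across all probe sets, 1.53% were called higher in that fit, and 4428 of 22215 had an unadjusted p under 0.05 in either direction. All 39 members had a mean signal at or above the median probe set, 8.06. With only the 11108 probe sets that bright tested, the median knockdown difference over them was 0.0528, and 435 were called higher. Same-numbered arrays of different clones moved together, and with the replicate number added to the fit 13 members rose: MCM2, MCM3, MCM4, MCM5, MCM6, MCM7, GINS2, POLA1, RFC2, RFC4, RPA2, RPA3 and CHAF1A. The share of all probe sets called higher in that fit was 1.74%, and 4486 of 22215 had an unadjusted p under 0.05 in either direction.

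**Figure D1:**
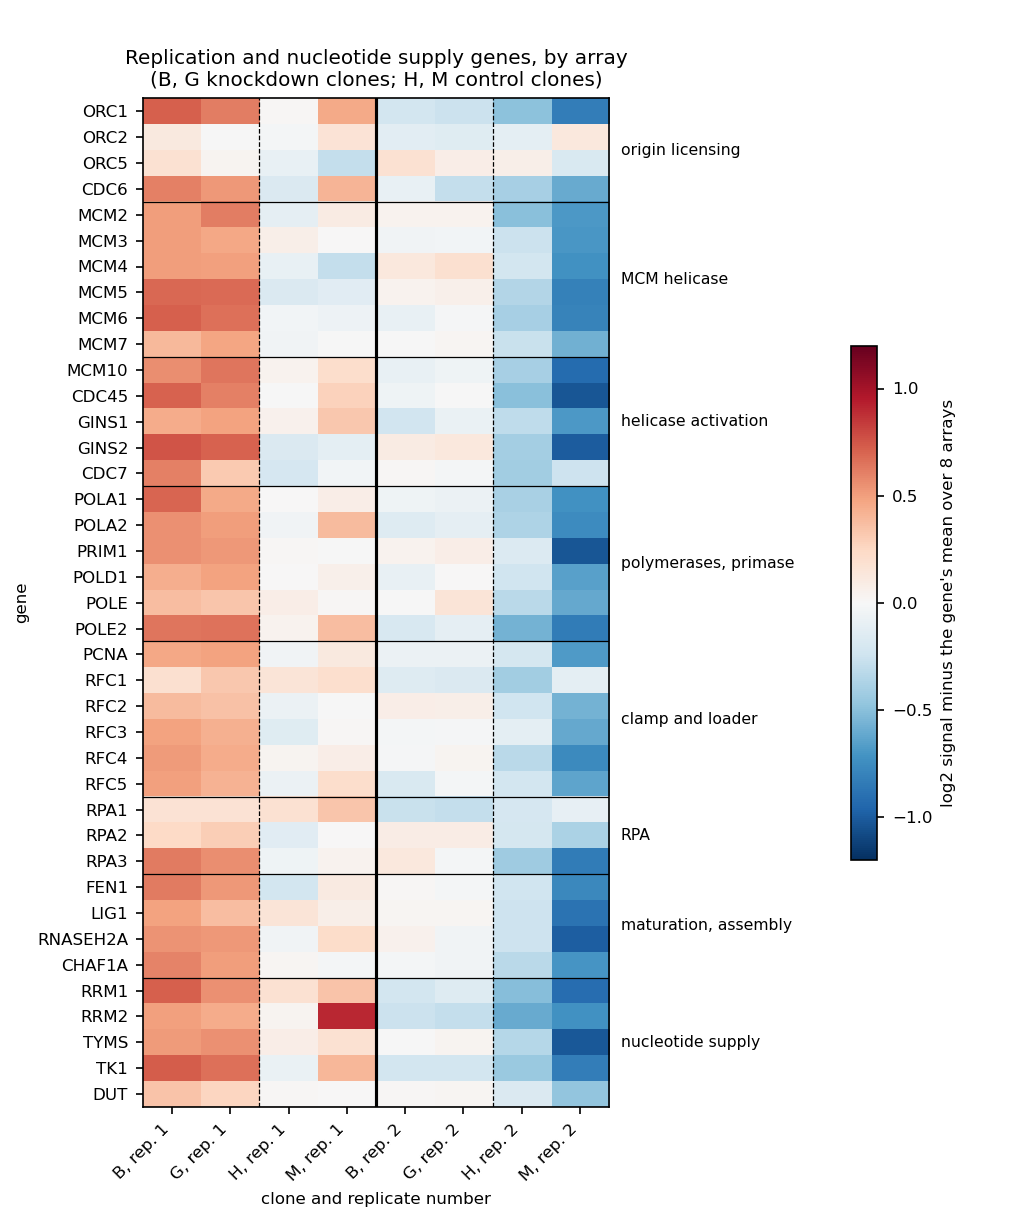
Each cell is the log2 signal of a gene (row) on an array (column) minus that gene's mean over the 8 arrays, with replicate 1 arrays left of the solid line and replicate 2 arrays right of it, and role groups named at the right. Replicate 1 arrays of clones B and G hold the highest value of 35 of the 39 genes, and replicate 2 of clone M the lowest of 34.

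The order of the arrays was shared by most of the 39 genes. The median over genes of the signal minus the gene's mean was 0.51 and -0.03 in clone B, 0.48 and -0.02 in clone G, -0.02 and -0.33 in clone H, and 0.08 and -0.72 in clone M. The replicate 2 arrays of the knockdown clones thus stood level with replicate 1 of clone H. All 4 knockdown arrays lay above all 4 control arrays for 9 members, MCM4, MCM5, MCM7, GINS2, CDC7, PRIM1, RFC2, RPA2 and DUT; 6.68% of all probe sets had that order. Within each replicate number, both knockdown arrays lay above both control arrays for 35 members, against 13.7% of all probe sets. The 4 exceptions were ORC2, RFC1, RPA1 and RRM2. Calls depended on single arrays and clones. In the fit without the replicate number, 0 members were called without any 1 of the 4 knockdown arrays, where 69 to 225 of the 22215 probe sets were called in place of 657. Without replicate 1 of clone H 7 members and 1544 probe sets were called, without replicate 2 of clone H 13 members and 3751 probe sets, and without replicate 1 or 2 of clone M 1 member each time and 570 or 500 probe sets. The gain in calls without arrays of clone H was thus seen over all probe sets, not only in the members. With the replicate number, the 13 calls became 1 and 0 without the respective arrays of clone B, 4 and 1 for clone G, 7 and 31 for clone H, and 9 and 17 for clone M; over all probe sets the 744 calls became 217 and 88, 277 and 171, 649 and 2289, and 358 and 670. The median difference stayed positive without each array in turn, from 0.31 to 0.56. Treating the clone as the unit, 2 knockdown against 2 control clone means, limma called 0 members (34 at an unadjusted p under 0.05) and 1 of the 22215 probe sets (3512 unadjusted). The signal came from bulk lysates, in which fewer cells in S phase and less RNA per cell cannot be told apart.

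Promoters were read for members that moved together. RefSeq windows on GRCh38.p14, from 250 bases before to 50 after each annotated start, were found for 35 of the 39 members, in 47 windows, and MCM4, MCM5, RPA2 and RPA3 were not matched. An E2F consensus, any of TTTCCCGC, TTTCGCGC, TTTGCCGC and TTTGGCGC on either strand, was present for 17 of 35 members (48.6%), beside 6.07% of genes measured on the arrays; by window the shares were 36.2% of the members' windows and 3.31% of all 35116 windows. The CCAAT box, CCAAT on either strand, was present for 22 of 35 members (62.9%), beside 44.2% of the measured genes. Below are the 200 bases before the start of 5 members, on the gene's own strand and 5′ to 3′, with E2F matches in capitals: MCM6 and MCM7 for the helicase, GINS2 for the largest knockdown difference, PCNA as the clamp, and RPA1 as a member with a negative difference. MCM6 lies at chr2:135876444-135876643, MCM7 at chr7:100101398-100101597, GINS2 at chr16:85688955-85689154 and PCNA at chr20:5126623-5126822, all on the minus strand, and RPA1 at chr17:1829805-1830004 on the plus strand.
MCM6: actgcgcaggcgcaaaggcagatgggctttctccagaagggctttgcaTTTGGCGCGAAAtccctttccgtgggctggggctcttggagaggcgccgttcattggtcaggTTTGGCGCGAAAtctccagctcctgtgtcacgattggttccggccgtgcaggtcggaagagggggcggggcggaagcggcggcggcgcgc
MCM7: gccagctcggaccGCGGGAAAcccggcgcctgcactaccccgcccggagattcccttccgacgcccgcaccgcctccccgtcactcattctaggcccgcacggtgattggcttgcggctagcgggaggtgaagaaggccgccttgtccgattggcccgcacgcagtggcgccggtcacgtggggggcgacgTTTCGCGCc
GINS2: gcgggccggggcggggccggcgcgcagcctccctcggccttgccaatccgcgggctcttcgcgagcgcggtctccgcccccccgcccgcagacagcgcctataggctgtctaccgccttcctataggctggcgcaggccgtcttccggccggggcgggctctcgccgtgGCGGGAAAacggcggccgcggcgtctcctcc
PCNA: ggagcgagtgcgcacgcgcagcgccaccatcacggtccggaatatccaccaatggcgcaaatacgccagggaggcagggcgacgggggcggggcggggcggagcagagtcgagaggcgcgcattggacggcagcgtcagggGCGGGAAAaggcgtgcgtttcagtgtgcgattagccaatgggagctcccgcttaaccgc
RPA1: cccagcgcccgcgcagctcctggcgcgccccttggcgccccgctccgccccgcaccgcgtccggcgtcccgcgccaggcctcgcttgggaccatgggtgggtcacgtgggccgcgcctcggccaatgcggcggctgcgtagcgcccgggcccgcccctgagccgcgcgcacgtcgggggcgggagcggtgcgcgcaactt

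In MCM6 each capital run holds 2 overlapping matches on opposite strands, giving 4 in all. MCM7 has 2, GINS2 and PCNA 1 each, and RPA1 none in this window. MCM7 had 3 windows and PCNA 2. For each of these genes the window with the most E2F matches was printed, and the windows not printed held none. The 17 members with a match had a median knockdown difference of 0.44 and the 18 without a match 0.45, with 6 and 3 members called in the fit with the replicate number. The members that had no window, MCM4, MCM5, RPA2 and RPA3, were all called in that fit and are in neither group. A match describes letters in the window and does not show binding.

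**Figure D2:**
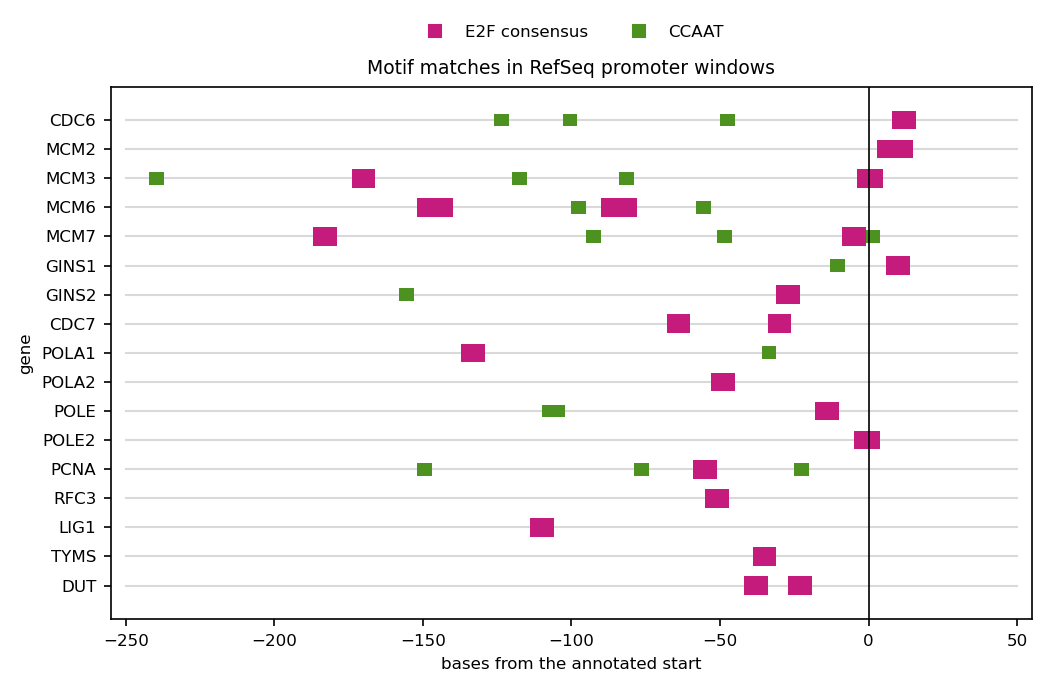
Positions of E2F consensus (magenta) and CCAAT (green) matches relative to the annotated start (0) for the 17 members with an E2F match, with distance in bases on the x axis. For each gene only the 1 window that held an E2F match is drawn. MCM6 has its overlapping pairs at -152 and -148 and at -90 and -86, and the single GINS2 match begins at -31.

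Origin licensing genes had the smallest median knockdown difference of the 8 role groups, 0.31 over 4 genes, and 0 of the 4 were called in either limma fit. At an unadjusted p under 0.05 there was 1 without the replicate number and 3 with it, beside 4428 and 4486 of the 22215 probe sets. ORC1, the largest subunit of the origin recognition complex, read 9.05 and 8.10 in clone B, 8.94 and 8.07 in clone G, 8.34 and 7.84 in clone H, and 8.78 and 7.49 in clone M. Its replicates differed more than its conditions: the knockdown difference was 0.43 (SE 0.30, limma adjusted p = 0.454, and 0.134 with the replicate number). ORC2, a core subunit of the same complex, read 9.69 and 9.45 in clone B, 9.57 and 9.43 in clone G, 9.55 and 9.46 in clone H, and 9.73 and 9.69 in clone M. The groups overlapped and the difference was -0.07 (SE 0.09, limma adjusted p = 0.683). ORC5, an ATP-binding subunit, read 10.39 and 10.39 in clone B, 10.24 and 10.29 in clone G, 10.12 and 10.28 in clone H, and 9.92 and 10.03 in clone M. Clone H replicate 2 reached into the knockdown range, and the difference of 0.24 missed the threshold (SE 0.09, limma adjusted p = 0.165). CDC6, the loader that joins ORC to recruit the MCM ring, differed by 0.38 (adjusted p = 0.414, or 0.206 with the replicate number).

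The 6 MCM genes, which encode the replicative helicase ring, had a median difference of 0.62, the highest of the role groups, and each of the 6 rose in the fit with the replicate number. MCM4, which forms the ring's core with MCM6 and MCM7, read 10.77 and 10.40 in clone B, 10.77 and 10.47 in clone G, 10.18 and 10.05 in clone H, and 9.99 and 9.55 in clone M. The lowest knockdown array exceeded the highest control array, and MCM4 rose by 0.66 (SE 0.14), 1.58-fold, from 9.94 ± 0.27 to 10.60 ± 0.20 (SD, n = 4 arrays each; limma adjusted p = 0.0421, and 0.0202 with the replicate number). Its difference was 0.68 within replicate 1 and 0.63 within replicate 2, and all 4 MCM4 probe sets differed by 0.64 to 0.70. The call was lost without replicate 1 or 2 of clone B (limma adjusted p = 0.12 and 0.155), replicate 1 or 2 of clone G (0.129 and 0.0854) or replicate 1 of clone M (0.0667). It was also lost in clone means (0.12), without the clone block (0.0562), with the mean of the 4 probe sets (0.069), and within replicate 1 or replicate 2 alone (0.0889 and 0.315). The correlation within clones was -0.068 in the fit that called it, which narrows the error.

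MCM2, the subunit that also binds histones H3 and H4, read 12.44 and 11.99 in clone B, 12.56 and 11.98 in clone G, 11.84 and 11.44 in clone H, and 12.04 and 11.26 in clone M. Knockdown arrays were above control arrays at each replicate number, but replicate 2 of B and G lay below replicate 1 of M, and the difference was 0.60 (SE 0.18, limma adjusted p = 0.116, and 0.00925 with the replicate number). MCM3, which sits between MCM5 and MCM7 in the ring, read 12.27 and 11.73 in clone B, 12.23 and 11.74 in clone G, 11.84 and 11.51 in clone H, and 11.78 and 11.08 in clone M. Overlap was again between knockdown replicate 2 and control replicate 1, with a difference of 0.44 (limma adjusted p = 0.216, and 0.0439 with the replicate number). MCM5, which with MCM2 forms the gate through which the ring opens, read 11.22 and 10.57 in clone B, 11.21 and 10.59 in clone G, 10.36 and 10.18 in clone H, and 10.40 and 9.72 in clone M. Here the groups did not overlap, and the difference was 0.73 (SE 0.19, limma adjusted p = 0.075, and 0.0152 with the replicate number). MCM6, the neighbour of MCM2 and MCM4, read 12.58 and 11.78 in clone B, 12.53 and 11.85 in clone G, 11.83 and 11.46 in clone H, and 11.80 and 11.06 in clone M. Replicate 2 of clone B was just under replicate 1 of clone H, and the difference was 0.64 (limma adjusted p = 0.146, and 0.0145 with the replicate number). MCM7, the partner of MCM4 and MCM6 in the helicase core, read 12.43 and 12.04 in clone B, 12.51 and 12.07 in clone G, 12.00 and 11.77 in clone H, and 12.03 and 11.46 in clone M. Its groups were separate by a narrow margin, and the difference was 0.44 (limma adjusted p = 0.13, and 0.0234 with the replicate number).

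**Figure D3:**
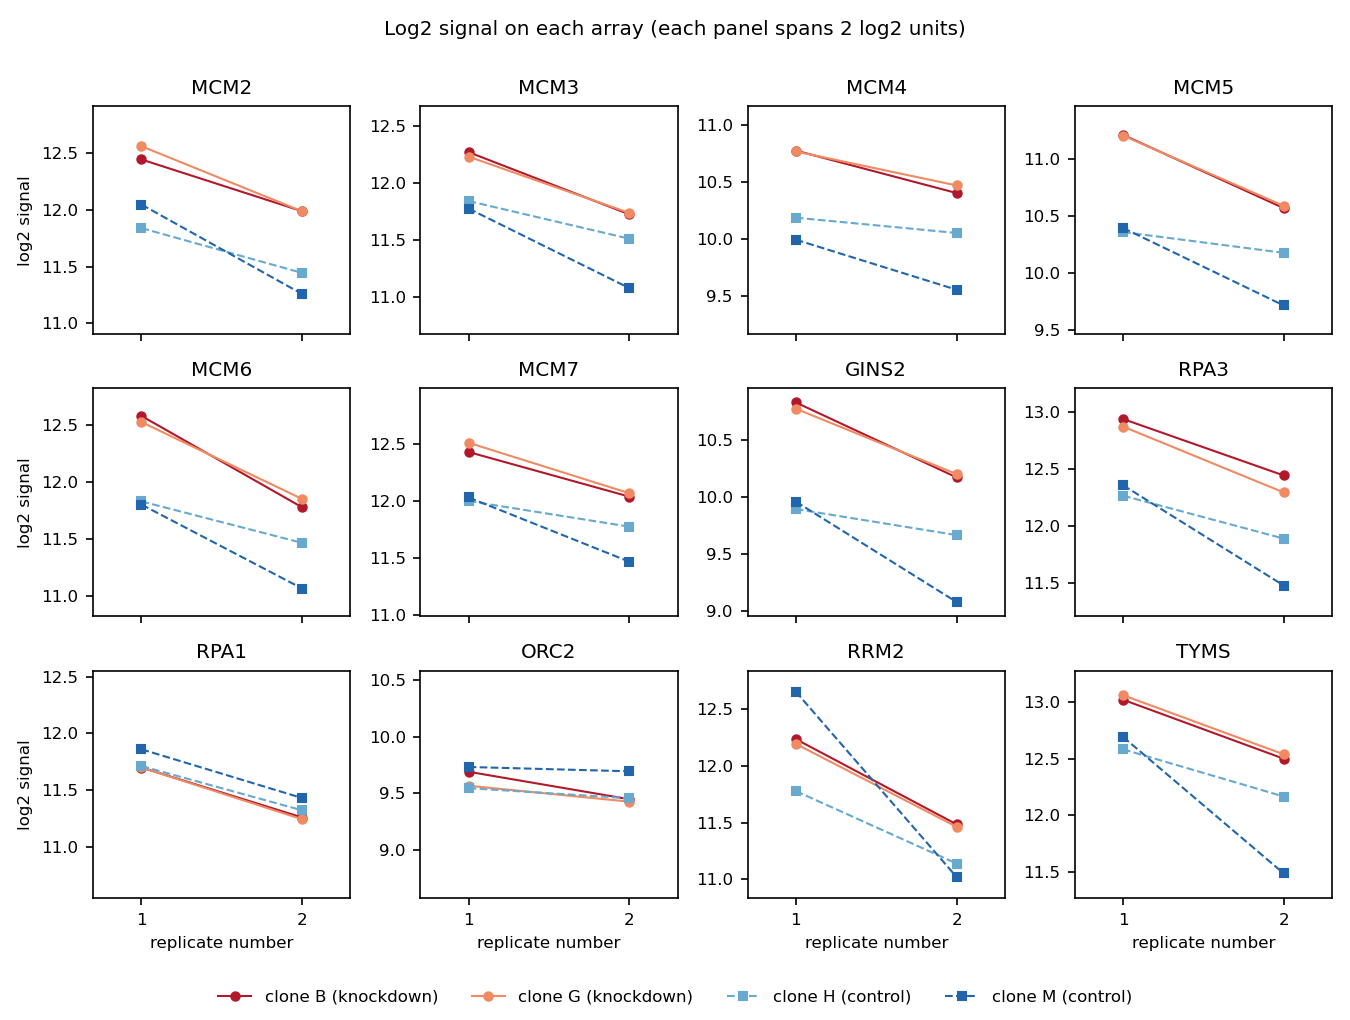
Log2 signal (y axis, 2 units in every panel) of 12 members on each array, with replicate number on the x axis, circles for knockdown clones B and G and squares for control clones H and M, and lines joining the duplicates of a clone. In the MCM2 to MCM7 panels both knockdown clones lie above both control clones at each replicate number, and in the RPA1 and ORC2 panels they do not.

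Helicase activation genes had a median difference of 0.53 over 5 genes, all positive, of which 1 rose with the replicate number in the fit. GINS2, a subunit of the tetramer that joins CDC45 and MCM2 to MCM7, read 10.83 and 10.17 in clone B, 10.78 and 10.20 in clone G, 9.89 and 9.67 in clone H, and 9.96 and 9.08 in clone M. Its 4 knockdown arrays lay above its 4 control arrays, and it had the largest difference of the 39 members, 0.85 (SE 0.21), 1.8-fold, with limma adjusted p = 0.0693, and 0.0147 with the replicate number. GINS1, another subunit of the same tetramer, read 10.84 and 10.17 in clone B, 10.88 and 10.32 in clone G, 10.45 and 10.09 in clone H, and 10.72 and 9.71 in clone M. Replicate 1 of both control clones was above the replicate 2 knockdown arrays, and the difference was 0.31 (SE 0.22, limma adjusted p = 0.461). CDC45, the third component of the active helicase, differed by 0.63 and MCM10, which helps start unwinding, by 0.53, with limma adjusted p = 0.0584 and 0.0668 with the replicate number. CDC7, the kinase that phosphorylates the MCM ring, differed by 0.45 with no overlap (limma adjusted p = 0.12, and 0.0553 with the replicate number).

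Polymerase and primase genes were all positive, with a median difference of 0.46 over 6 genes, and POLA1 rose with the replicate number in the fit. POLA1, the catalytic subunit of polymerase alpha, read 10.07 and 9.32 in clone B, 9.83 and 9.31 in clone G, 9.37 and 8.98 in clone H, and 9.46 and 8.65 in clone M. Knockdown exceeded control at each replicate number while replicate 1 of both control clones reached above the lowest knockdown arrays, and the difference was 0.52 (SE 0.21, limma adjusted p = 0.214, and 0.0389 with the replicate number). POLA2, its regulatory partner, read 10.10 and 9.40 in clone B, 10.06 and 9.45 in clone G, 9.51 and 9.19 in clone H, and 9.94 and 8.80 in clone M. Overlap came from replicate 1 of both control clones, and the difference was 0.39 (limma adjusted p = 0.387). PRIM1, the catalytic primase subunit, read 11.13 and 10.62 in clone B, 11.10 and 10.66 in clone G, 10.59 and 10.41 in clone H, and 10.57 and 9.55 in clone M. There was no overlap, but replicate 2 of clone M stood far below the other control arrays, and the difference of 0.60 had an SE of 0.22 (limma adjusted p = 0.182, and 0.103 with the replicate number). POLD1 and POLE, the catalytic subunits for the lagging and leading strands, differed by 0.41 and 0.43, and POLE2, the second subunit of polymerase epsilon, by 0.50.

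The clamp and its loader had a median difference of 0.42 over 6 genes. PCNA, the sliding clamp, differed by 0.41 (SE 0.18, limma adjusted p = 0.248, and 0.0869 with the replicate number). RFC2, a small subunit of the loader, read 10.92 and 10.63 in clone B, 10.90 and 10.62 in clone G, 10.48 and 10.30 in clone H, and 10.54 and 9.98 in clone M. These groups did not overlap, and the difference was 0.44 (limma adjusted p = 0.0988, and 0.0363 with the replicate number). RFC4, another small subunit, read 11.26 and 10.73 in clone B, 11.19 and 10.77 in clone G, 10.78 and 10.42 in clone H, and 10.82 and 9.99 in clone M. It overlapped only between knockdown replicate 2 and control replicate 1, and differed by 0.49 (limma adjusted p = 0.19, and 0.0453 with the replicate number). RFC1, the large subunit specific to the PCNA loader, read 10.27 and 9.92 in clone B, 10.40 and 9.90 in clone G, 10.23 and 9.66 in clone H, and 10.27 and 9.96 in clone M. Conditions interleaved at both replicate numbers, and the difference was 0.09 (SE 0.15, limma adjusted p = 0.767). RFC3 and RFC5 differed by 0.44 and 0.35, neither called.

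The 3 subunits of RPA, the complex that coats single-stranded DNA, did not all have the same sign. RPA3, the smallest subunit, read 12.94 and 12.44 in clone B, 12.87 and 12.30 in clone G, 12.27 and 11.89 in clone H, and 12.36 and 11.48 in clone M. Knockdown exceeded control at each replicate number, replicate 1 of clone M lay just above replicate 2 of clone G, and the difference was 0.64 (SE 0.20, limma adjusted p = 0.12, and 0.0159 with the replicate number). RPA2, the middle subunit, read 11.07 and 10.92 in clone B, 11.12 and 10.92 in clone G, 10.69 and 10.62 in clone H, and 10.84 and 10.45 in clone M. The groups were separate, and the difference was 0.36 (SE 0.09, limma adjusted p = 0.0696, and 0.041 with the replicate number). RPA1, the large DNA-binding subunit, read 11.70 and 11.26 in clone B, 11.70 and 11.24 in clone G, 11.71 and 11.32 in clone H, and 11.86 and 11.43 in clone M. Replicate 1 of clone M was highest, the groups overlapped, and the difference was -0.11 (SE 0.14, limma adjusted p = 0.712). The difference between subunits was not tested.

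Maturation and assembly genes, which process Okazaki fragments and place new histones, had a median difference of 0.52 over 4 genes. CHAF1A, the large subunit of the histone chaperone CAF-1, read 9.99 and 9.36 in clone B, 9.89 and 9.35 in clone G, 9.41 and 9.07 in clone H, and 9.37 and 8.68 in clone M. Knockdown was above control at each replicate number, replicate 1 of both control clones lay just above the knockdown replicate 2 arrays, and the difference was 0.51 (limma adjusted p = 0.18, and 0.0321 with the replicate number). FEN1, the flap endonuclease, read 11.75 and 11.14 in clone B, 11.65 and 11.11 in clone G, 10.90 and 10.88 in clone H, and 11.23 and 10.35 in clone M. Control replicate 1 of clone M exceeded the replicate 2 knockdown arrays, and the difference was 0.57 (limma adjusted p = 0.149, and 0.0716 with the replicate number). LIG1, the ligase that seals the fragments, read 10.11 and 9.64 in clone B, 9.99 and 9.64 in clone G, 9.77 and 9.37 in clone H, and 9.69 and 8.74 in clone M. The groups overlapped, with replicate 2 of clone M the lowest array by a wide gap, and the difference was 0.45 (limma adjusted p = 0.265). RNASEH2A, the catalytic subunit of RNase H2, differed by 0.53 (limma adjusted p = 0.244).

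Nucleotide supply genes had a median difference of 0.45 over 5 genes, all positive, and 0 were called in either fit, with 2 at an unadjusted p under 0.05 without the replicate number and 4 with it. TYMS, thymidylate synthase, read 13.02 and 12.50 in clone B, 13.06 and 12.54 in clone G, 12.58 and 12.17 in clone H, and 12.69 and 11.49 in clone M. Knockdown was higher at each replicate number, the groups overlapped across numbers, replicate 2 of clone M was far below the rest, and the difference was 0.55 (SE 0.24, limma adjusted p = 0.242, and 0.0944 with the replicate number). RRM1, the large subunit of ribonucleotide reductase, read 11.31 and 10.37 in clone B, 11.14 and 10.44 in clone G, 10.78 and 10.08 in clone H, and 10.94 and 9.68 in clone M. Its duplicates differed more than its conditions, with a difference of 0.45 (SE 0.29, limma adjusted p = 0.424). RRM2, the small subunit made in S phase, read 12.23 and 11.48 in clone B, 12.19 and 11.46 in clone G, 11.78 and 11.14 in clone H, and 12.65 and 11.02 in clone M. Clone M held both the highest and the lowest array; the difference was 0.20 (SE 0.33, limma adjusted p = 0.769), 0.39 within replicate 2 and -0.00125 within replicate 1. TK1, the salvage thymidine kinase, and DUT, the dUTPase, differed by 0.48 and 0.32.

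**Figure D4:**
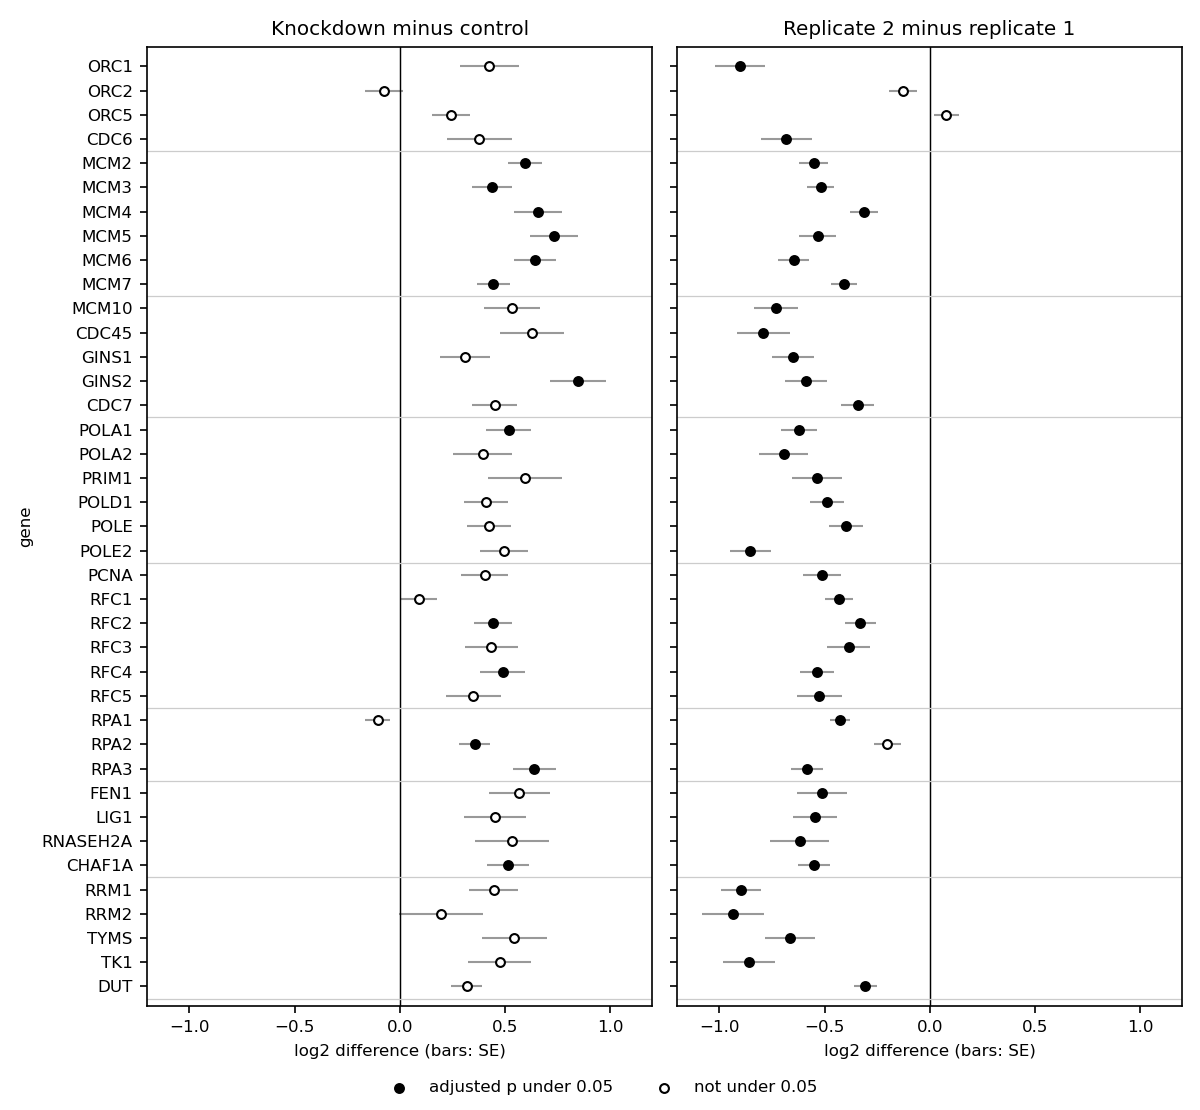
Log2 differences of the 39 genes (y axis, by role group) for knockdown minus control (left, SE from the fit with the replicate number) and replicate 2 minus replicate 1 (right), with bars of 1 SE and filled points where the limma adjusted p of that fit was under 0.05. On the left 13 points are filled, between 0.36 for RPA2 and 0.85 for GINS2; on the right 36 are filled, all below 0.

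The second comparison set replicate 2 against replicate 1 within clones. Replication transcripts were lower in replicate 2: 36 of 39 members fell, 38 differences were negative, and the median was -0.54, beside 0.029 over all probe sets, of which 8.76% were called lower. Replicate 2 was below replicate 1 in all 4 clones for 37 members, an order that 18.3% of all probe sets had. With only the 11108 brighter probe sets tested, their median was -0.0345, and 1788 were called lower. The median fall of the members was larger than their median knockdown difference. Nucleotide supply genes had the largest median, -0.86, and licensing genes the smallest, -0.40.

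RRM2 fell by 0.94 (SE 0.15, limma adjusted p = 0.00796), ORC1 by 0.90 (adjusted p = 0.00458) and RRM1 by 0.90 (adjusted p = 0.003), the 3 largest falls. Between conditions none of these 3 was called in either fit: with the replicate number the differences were 0.20 (SE 0.20, limma adjusted p = 0.633), 0.43 (SE 0.14, 0.134) and 0.45 (SE 0.12, 0.0769). RPA1, negative between conditions, fell by 0.43 (SE 0.05, limma adjusted p = 0.00302), and RFC1 fell by 0.43 (adjusted p = 0.00727). The other 3 members were not called: ORC5 at +0.08 (limma adjusted p = 0.39), ORC2 at -0.13 (0.218) and RPA2 at -0.20 (0.079). By clone the median was -0.53 in B, -0.52 in G, -0.33 in H and -0.81 in M. Without clone B 19 members were called. Within the control clones alone, with 1 residual degree of freedom, 1 was called and the median was -0.55. Calls over all 22215 probe sets went from 2966 to 767 without clone B and to 132 within the control clones alone. The labels do not say what the replicate number marks. The ACTB 3' minus 5' signal was 0.46 and 0.24 in clone B, 0.35 and 0.25 in G, 0.30 and 0.19 in H, and 0.10 and 0.11 in M. For GAPDH it was 0.09 and 0.05 in B, 0.06 and 0.06 in G, 0.13 and 0.03 in H, and 0.02 and 0.04 in M. The part of RNA integrity in the falls was not tested.

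Whether the replicate difference depended on the condition was tested as an interaction. No member was called (0 of 39, with 0 at an unadjusted p under 0.05), and 0.0% of all probe sets were called in this fit, which had 2 residual degrees of freedom. The median interaction over members was -0.0061, from -0.25 for CDC7 to 0.39 for RRM2. The median knockdown difference was 0.44 within replicate 1, with 36 members positive, and 0.48 within replicate 2, with 37 positive.

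The third comparison set clones of the same condition against each other. The knockdown clones B and G were close: the median G minus B difference was -0.013, the extremes were -0.16 for CDC7 and 0.10 for GINS1, and 0 of 39 members were called in limma (0 at an unadjusted p under 0.05), beside 0.0045% of all probe sets in either direction. Control clones H and M differed by a median of 0.14, with 0 members called (0 at an unadjusted p under 0.05), beside 1.05% of all probe sets. With the replicate number 0 members were again called (6 at an unadjusted p under 0.05), beside 1538 of the 22215 probe sets. The direction turned with the replicate number. H was below M for 30 members within replicate 1, with a median of -0.15, and above M for 35 members within replicate 2, with a median of 0.39. PRIM1 had the largest H minus M difference, 0.44 (limma adjusted p = 0.626), followed by RRM2 at -0.38 (0.822) and LIG1 at 0.35 (0.7).

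Knockdown clones were then set against each control clone, comparisons that share the knockdown arrays. Against clone H the median difference was 0.39, with 0 members called higher beside 0.144% of all probe sets. At an unadjusted p under 0.05 there were 5 members, beside 1882 of the 22215 probe sets in either direction. With the replicate number 8 members were called higher, beside 1.63%. Against clone M the median difference was 0.51, with 1 member called beside 3.78%, and 29 with the replicate number beside 13.5%. The member called against clone M without the replicate number was MCM4. GINS2 differed by 0.72 from H and 0.98 from M, and MCM4 by 0.49 and 0.83. RRM2 differed by 0.38 from H and 0.01 from M, and RPA1 by -0.04 and -0.17.

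Lists of related genes place these values among their neighbours in the pathway. Other replication factors, 34 of 41 listed genes measured, had a median knockdown difference of 0.34 with 31 positive, and 2 rose, beside 1.53% of all probe sets. MCMBP, which binds MCM subunits outside the chromatin, read 9.51 and 9.09 in clone B, 9.15 and 9.01 in clone G, 8.39 and 8.72 in clone H, and 8.50 and 8.37 in clone M. The groups were separate, and it rose by 0.69 (SE 0.12, limma adjusted p = 0.022). POLE3, a histone-fold subunit of polymerase epsilon, read 10.90 and 10.85 in clone B, 10.98 and 10.91 in clone G, 10.40 and 10.69 in clone H, and 10.49 and 10.26 in clone M. Its groups were separate too, and it rose by 0.45 (limma adjusted p = 0.0344, and 0.0594 with the replicate number). With the replicate number 5 rose, MCMBP, TIPIN, ASF1B, DNA2 and SLBP, beside 1.74% of all probe sets. In replicate 2 against replicate 1 this list had a median of -0.38, and 20 genes fell, beside 8.76% of all probe sets.

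Other nucleotide synthesis genes, 31 of 35 measured, had a median of 0.11 with 20 positive. In limma 0 were called (9 at an unadjusted p under 0.05, beside 4428 of the 22215 probe sets). The smallest p belonged to CMPK1, the pyrimidine monophosphate kinase, at -0.48 (limma adjusted p = 0.0578, and 0.0465 with the replicate number). PFAS of purine synthesis differed by 0.28, the deaminase DCTD by -0.34 and the thymidylate kinase DTYMK by 0.41. In replicate 2, 8 of these genes fell and 2 rose, beside 1945 and 1021 of the 22215 probe sets. E2F and RB regulators, 32 of 35 measured, had a median of 0.19 with 23 positive; 0 rose, and CDKN1A, the p21 inhibitor of cyclin-dependent kinases, fell by 0.69 (SE 0.14, limma adjusted p = 0.0382, and 0.0636 with the replicate number). CDKN1A read 10.35 and 10.65 in clone B, 10.76 and 10.95 in clone G, 11.64 and 11.21 in clone H, and 11.12 and 11.49 in clone M, with all knockdown arrays below all control arrays. With the replicate number 4 regulators rose, TFDP1, CCNE2, CDK6 and CDC25A, and TFDP2 fell. Over the 22215 probe sets, 386 rose and 358 fell in that fit, and 340 rose and 317 fell without the replicate number. E2F1 itself differed by 0.26 (limma adjusted p = 0.321).

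Mitosis genes, 31 of 32 measured, had a median knockdown difference of 0.52, with 31 of 31 positive and 0 called in either limma fit. At an unadjusted p under 0.05 there were 2 without the replicate number and 16 with it, beside 4428 and 4486 of the 22215 probe sets. The 4 mitosis genes with the smallest p were BUB3 at 0.28, MKI67 at 0.78, NDC80 at 0.94 and UBE2C at 0.63. Over the mitosis genes the replicate 2 minus replicate 1 median was -0.93, with 28 falls, beside 8.76% of all probe sets called lower. Their array medians ran from 0.73 in replicate 1 of clone B to -1.26 in replicate 2 of clone M. An E2F match was present for 11.5% of the mitosis genes with a window and a CCAAT box for 80.8%, beside 48.6% and 62.9% of the replication genes. The difference between the lists was not tested.

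**Figure D5:**
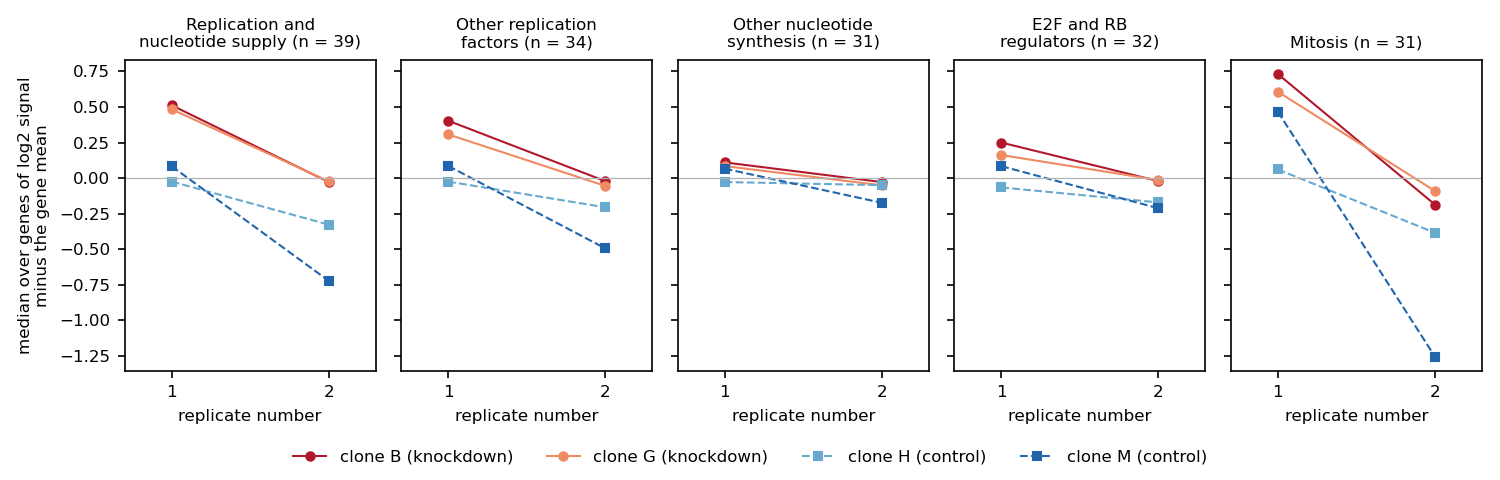
Median over the genes of each list of the log2 signal minus the gene's mean (y axis) on each array, with replicate number on the x axis, circles for knockdown clones and squares for control clones. The 39 members and the mitosis genes share the high replicate 1 arrays of clones B and G and the low replicate 2 array of clone M (-0.72 and -1.26), and the other nucleotide synthesis genes lie between -0.17 and 0.11.

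The members' other probe sets gave a check on the choice of the brightest. The 39 genes had 62 probe sets, of which 57 had a positive knockdown difference and 59 were lower in replicate 2. Of 23 probe sets that were not the brightest of their gene, 21 had the same sign between conditions as the brightest. The 2 exceptions were dim, an ORC5 probe set with a mean signal of 4.85 and an RFC1 probe set with a mean of 4.76. MCM4 had 2 probe sets called higher without the replicate number, and 19 of the 62 were called with it.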

How the data were processed

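RNA was measured on 8 arrays. The submitters' processing notes name GCOS and RMA, with no version in the sources used here, and the deposited values, log2 probe-set signals by their range, were used without further scaling. RMA evens the intensity distributions of the arrays, so a shift common to most genes could be reduced or lost, and the number of arrays limits the precision. The deposited values still differed in spread, with an SD from 2.21 in replicate 2 of clone M to 2.33 in replicate 1 of clone B. With quantile normalization the members' median was 0.41 between conditions and -0.48 between replicate numbers. The part of the spread in the results was not tested. The array annotation gave 19064 of 22215 non-control probe sets 1 gene; 1043 had several and 2108 none, and these were not named. The brightest probe set stood for a gene.

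The model was limma 3.58.1 under R 4.3.3 (lmFit, eBayes with a trend) over 22215 probe sets, two-sided, with Benjamini-Hochberg adjustment and a threshold of 0.05. Clone was a random block (duplicateCorrelation, statmod 1.5.0; consensus correlation -0.068, and 0.24 with the replicate number). Replicate and interaction fits had clone as a fixed term, and clone comparisons 1 mean per clone. The titles number the replicates, and after subtracting clone means, arrays of equal number correlated over probe sets in all 6 pairs of clones (r = 0.42 to 0.78); a replicate block fit therefore stands beside each call it changed. The fits were run on simulated data without differences between clones of a condition, so false calls from such differences were not tested.

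The 39 members, the gene lists, the tests and the naming rule were chosen with earlier results of these data known. Values by array are given for MCM2 to MCM7, members called in either fit, the largest and smallest knockdown difference of each role group, negative members, the 3 largest and smallest replicate differences, and the 3 largest H minus M differences. From other lists, called genes or the 4 with the smallest p are named, with array values for MCMBP, POLE3 and CDKN1A. PCNA was printed as a promoter, and NOTCH2, TIPIN, ASF1B, DNA2, SLBP, TFDP1, CCNE2, CDK6, CDC25A, TFDP2 and E2F1 were named, after their values were seen. Alternatives covered scaling, filtering, probe-set averaging, the clone block, single replicate numbers, and each array or clone left out. The alternatives to the fit with the replicate number, including that without the clone block, were added after the data were seen. Symbols and promoters came from RefSeq.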

Additional observations from a re-analysis of the deposited data

Results flagged for a closer look

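Among 78 sets of 4 arrays, the 39 members in each condition, no array stood apart by Dixon's criterion. The markers of fibroblasts and smooth muscle were the exception among the lists: in the knockdown arrays, replicate 2 of clone B lay apart from the other 3, with a gap of 0.885 of the range. Chance alone gives such a gap in about 1 in 20 groups.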

How the results depend on the processing

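The median knockdown difference of the 39 genes stayed positive under every alternative run, from 0.31 to 0.56 with each array left out. The number of genes called did not stay the same. Against 1 gene called, 4 were called when only brighter probe sets were tested and 0 with clone means. The mean of all probe sets of a gene gave 0, as did the fit without the clone block. Within replicate 1 or replicate 2 alone 0 were called. With the replicate number as a block 13 were called, and 25 with it and no clone block, which treats duplicates of a clone as independent. Over everything tested, the 657 calls became, in the same order, 821 (of 11108), 1, 419 (of 11960 genes), 489, 18 and 1, 744 and 1568. Leaving out clone B or G gave 0, clone H 27 and clone M 13, while calls over all 22215 probe sets went from 657 to 13, 22, 8685 and 2117, and leaving out single arrays 0 to 13 (7 for replicate 1 of clone H). With the replicate block, the 13 became 25 without the clone block, 0 without clone B or G, 36 without clone H, 35 without clone M (3, 2, 8083 and 2773 of all probe sets, against 744), and 0 to 31 without single arrays (7 for replicate 1 of clone H). The consensus correlation was -0.59 with clone H left out and -0.54 with clone M left out, replicate number not fitted, and negative correlations narrow the errors. The 36 falls in replicate 2 became 1 in the control clones alone and 19 without clone B, while calls over all probe sets went from 2966 to 132 and 767. Against clone H the replicate block gave 8 in place of 0, and against clone M 29 in place of 1. It called 0 members for H minus M and for G minus B, where 1538 and 2 of the 22215 probe sets were called. Among single genes, ORC2 reversed without clone M (0.032), RFC1 without replicate 2 of clone H (-0.020) and RRM2 within replicate 1 (-0.00125). The cause of these changes in calls and signs was not tested. Signals near background could not be told from background, since no detection calls were used.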
